A study of Mus musculus with 9 samples.

Results

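The 8 genes described carry thyroid hormone in blood, bring it into cells, activate or inactivate it and answer to it in the nucleus: Dio1, Serpina7, Ttr, Slc16a10, Thra, Thrb, Rxra and Ncor1. They were chosen by name, and every probe whose symbol in the platform annotation is among these 8 was taken. This gave 10 of the 45281 probes of an Illumina mouse bead array, from 7 of the 8 genes; Ncor1 was not analysed here because none of the named probes carries its symbol. A probe counted as detected on an array where its p-value against the negative controls was under 0.05, and was tested if detected on 3 or more of the 9 arrays. Of the 10 probes 8 met this, from 5 genes, and the probes of Thra and Thrb did not.

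The thyroid secretes mainly thyroxine, and Dio1, a selenium-containing deiodinase abundant in liver, removes an iodine from it to give triiodothyronine (T3), the active hormone. Serpina7 (thyroxine-binding globulin) and Ttr (transthyretin) are made in liver and carry the hormones in plasma, and Slc16a10 is a membrane carrier of aromatic amino acids and thyroid hormones. In the nucleus T3 binds the receptors encoded by Thra and Thrb, which pair with the retinoid X receptor Rxra on DNA. Without hormone the receptors hold corepressor complexes built on Ncor1, and with hormone they exchange these for coactivators.

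The mice were C57BL/6 males, 8 weeks old, and each of 3 groups is represented by liver RNA on 3 arrays. The first received T3 for 3 days and an siRNA (small interfering RNA) that targets the forkhead transcription factor FoxO1, brought into the liver by hydrodynamic tail vein injection. The second received T3 for 3 days, which the labels call hyperthyroid, and the third was euthyroid. No label says whether mice of the other 2 groups had a control siRNA or an injection; if they had none, what the injection does and what the siRNA does cannot be told apart. Separate mice for the 3 arrays of a group are not stated either, so the p-values measure how these arrays spread, which may be in part technical.

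Between 16481 and 18357 probes were detected per array (36.4% to 40.5%), and arrays of a group correlated at 0.985 to 0.991. The liver label was checked on 11 hepatocyte markers, of which 9 had a probe that passed the detection filter. Changes are log2 fold changes of background-corrected, quantile-normalised signals with the SE of the limma fit over 3 arrays a group. Each probe's p-value was adjusted over the 18581 tested probes (Benjamini-Hochberg, threshold 0.05). Signals quoted as such are the deposited values, before normalisation and without background subtraction, so they carry differences in overall brightness between arrays. In liver tissue a lower signal from fewer cells of a type and one from less RNA per cell cannot be told apart.

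Foxo1 was lower in the siRNA group than with T3 alone on both of its probes. The brighter probe read 464, 485 and 517 in the siRNA group, 556, 1043 and 878 with T3 and 497, 559 and 442 in euthyroid liver. Every siRNA array lay below every T3 array, with a log2 change of -1.07 ± 0.15 (2.1-fold, adjusted p = 0.00221). The siRNA group did not pass against euthyroid liver on this probe (-0.30 ± 0.15, adjusted p = 0.165) and passed on the dimmer one (-0.70 ± 0.15, adjusted p = 0.0117). On the dimmer probe the fall relative to T3 was -0.75 (adjusted p = 0.0131). Both calls of the dimmer probe were lost when arrays were scaled by their medians (adjusted p = 0.179 relative to T3 and 0.156 relative to euthyroid liver). With T3 alone the brighter probe was higher than in euthyroid liver (0.77 ± 0.15, 1.71-fold, adjusted p = 0.00873), so its fall starts from a raised level. The dimmer probe did not pass with T3 relative to euthyroid liver (0.05 ± 0.15, adjusted p = 0.85).

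The regions around the transcription start of Dio1 and Serpina7 are shown because these 2 had the largest changes of the 5 genes tested. Each window has 300 bases, is read 5′ to 3′ on the gene's own (minus) strand and comes from RefSeq on GRCm38.p6; capitals in the Serpina7 window mark motif matches. The Dio1 window is chr4:107307119-107307418 and the Serpina7 window is chrX:139085187-139085486.
Dio1: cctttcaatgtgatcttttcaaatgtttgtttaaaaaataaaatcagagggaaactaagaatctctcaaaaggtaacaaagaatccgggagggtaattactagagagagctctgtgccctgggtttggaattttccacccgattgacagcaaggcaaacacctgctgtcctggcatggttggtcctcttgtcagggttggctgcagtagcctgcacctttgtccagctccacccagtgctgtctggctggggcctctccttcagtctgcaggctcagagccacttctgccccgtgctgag
Serpina7: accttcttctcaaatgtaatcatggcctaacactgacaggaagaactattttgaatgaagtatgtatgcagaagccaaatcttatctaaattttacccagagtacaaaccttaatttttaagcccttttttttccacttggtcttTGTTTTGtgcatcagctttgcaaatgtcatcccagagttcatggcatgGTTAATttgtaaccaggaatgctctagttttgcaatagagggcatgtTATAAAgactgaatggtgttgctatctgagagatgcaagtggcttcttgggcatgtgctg
Both strands were searched for 6 strings: the nuclear receptor core AGGTCA, 2 copies of it in the same direction with 4 bases between, the FoxO site TGTTTAC, the insulin response sequence core TGTTTTG, the HNF1 core GTTAAT and the TATA box TATAAA. The direct repeat contains the single core, so those 2 searches overlap. The Dio1 window matched none of the 6. The Serpina7 window held TGTTTTG with its first base at -105 from the annotated start, GTTAAT at -57 and TATAAA at -10. A second annotated start of Serpina7 puts the same 3 matches at -122, -74 and -27. Among 32851 windows of this length in the table, 6.28% held TGTTTTG, 7.1% GTTAAT, 13.6% TATAAA, 3.65% TGTTTAC, 16.3% AGGTCA and 0.0152% the direct repeat. AGGTCA was found in 1 of the 2 windows of Rxra and in 1 of the 2 windows of Thrb. It was in neither the Slc16a10 window nor the 2 of Ncor1. GTTAAT was also found in the Slc16a10 window and in 1 of the 2 windows of Thrb, and TATAAA in the other Thrb window. Thra had no window, and Ttr was not searched. A match describes letters and not a bound site.

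Dio1 (chromosome 4, 107291465 to 107307168) was several-fold higher in both groups that received T3 than in euthyroid liver, on both of its probes. The brighter probe had signals of 9463, 10915 and 9110 in the siRNA group, 9296, 14796 and 11348 with T3 and 3244, 3915 and 2153 in euthyroid liver. The 6 arrays with T3 all lay above the 3 without it. With T3 alone the rise was 1.92 ± 0.15 (3.77-fold, adjusted p = 0.000445), and with T3 plus FoxO1 siRNA it was 1.64 ± 0.15 (3.12-fold, adjusted p = 0.000508), both relative to euthyroid liver. The dimmer probe read 1751, 2881 and 2636 in the siRNA group, 2864, 2853 and 2423 with T3 and 599, 628 and 416 in euthyroid liver. Its rises were 2.47 ± 0.22 with T3 (5.54-fold, adjusted p = 0.000639) and 2.15 ± 0.22 in the siRNA group (4.45-fold, adjusted p = 0.000665).

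The siRNA group and the T3 group could not be separated on Dio1. On the brighter probe the 3 siRNA arrays lay under the 3 T3 arrays after normalisation, at log2 signals of 13.19, 13.36 and 13.10 against 13.36, 13.60 and 13.52. The difference was -0.28 ± 0.15 (adjusted p = 0.258), with a 95% interval of -0.62 to 0.07. On the dimmer probe the groups overlapped, at -0.32 ± 0.22 (adjusted p = 0.368, 95% interval -0.82 to 0.18). That value was -0.09 without siRNA array 1, -0.17 without T3 array 1 and -0.48 without siRNA array 2. The fall of Dio1 that these intervals still allow reaches -0.82 on the dimmer probe.

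**Figure D1:**
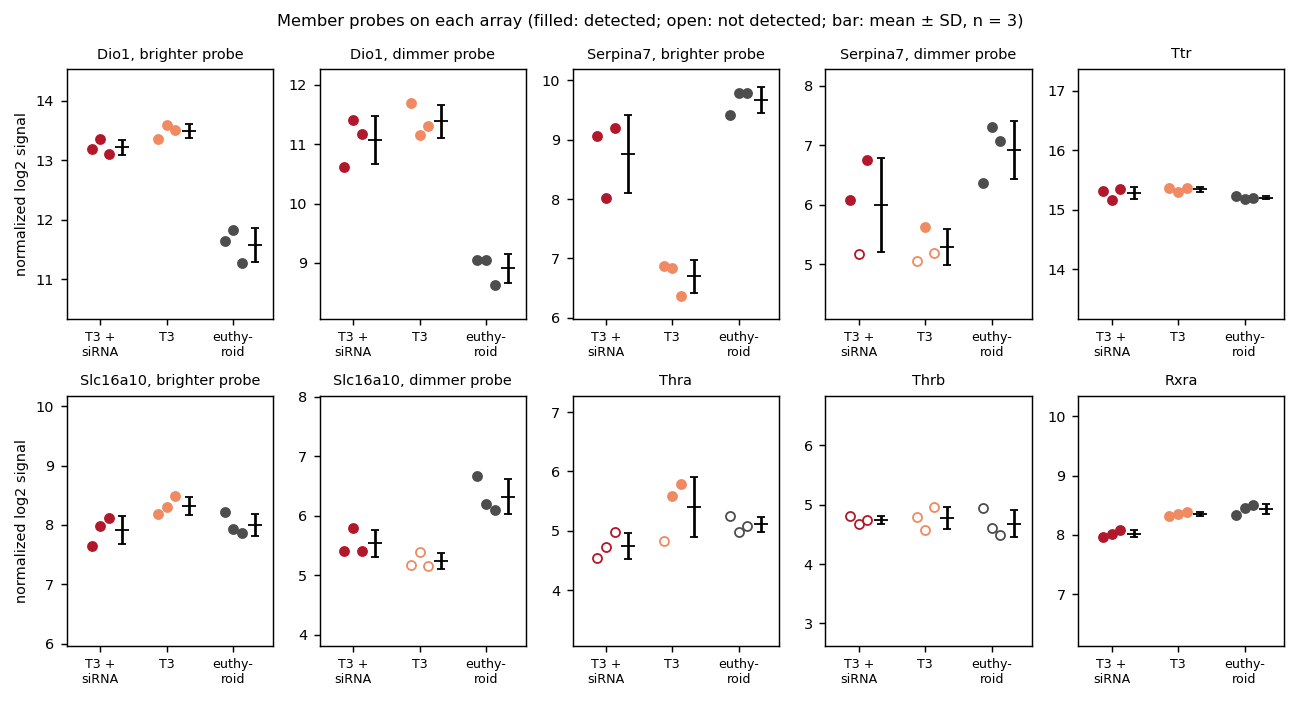
Normalised log2 signal (y axis, each panel with its own range of equal span) of the 10 probes on each of the 9 arrays, with T3 plus FoxO1 siRNA left, T3 in the middle and euthyroid right. Filled points were detected and open points were not, and bars are the mean ± SD of 3 arrays. Dio1 stands high in both T3 groups, Serpina7 lowest with T3 alone, and Thrb is open on all 9 arrays.

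Other enzymes that act on thyroid hormones were represented by 9 genes, of which 6 were tested; the deiodinases Dio2 and Dio3 and the sulfotransferase Sult1b1 did not pass the detection filter. In a list, each gene is read from its brightest tested probe, over 10408 genes. With T3 against euthyroid liver 3 of the 6 rose and 0 fell, where 7.47% of all genes rose; the list's median was 0.69 and that of all genes -0.05. The sulfotransferase Sult1d1 rose by 1.14 ± 0.18 (adjusted p = 0.00459), although its other probe gave only 0.35. The glucuronosyltransferases Ugt1a1 (1.06, adjusted p = 0.0175) and Ugt1a9 (0.93, adjusted p = 0.0426) also rose, and their calls were lost without euthyroid array 1, among other arrays; leaving out a single array left 1 to 3 of the 3 calls. These Ugt1a genes share exons, so their probes may read each other's transcripts.

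Among the 6, 1 fell in the siRNA group against T3, Ugt1a1 (-0.83 ± 0.24, adjusted p = 0.048), where 6.11% of all genes fell; that call was lost in 12 of 19 alternative settings. The list's median was -0.52 in that comparison, beside 0.01 over all genes. Against euthyroid liver 0 of the 6 passed in the siRNA group by limma (1 with an unadjusted p under 0.05), with a median of 0.17. The probe read for Ugt1a6a gave -0.60 relative to T3 and -0.15 relative to euthyroid liver. Its other probes disagreed, with 0.16 and 0.24 relative to T3 and 1.05 and 1.12 relative to euthyroid liver. The comparisons of T3 with euthyroid liver and of the siRNA group with T3 use the same T3 arrays, so opposite signs in them are not independent.

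Dio1 protein contains selenocysteine, and 7 of 8 genes of selenoprotein synthesis were tested. With T3 only Sepsecs, which makes selenocysteinyl-tRNA, passed (0.65 ± 0.18, adjusted p = 0.0354), and 10 of 19 alternatives lost it. Sephs1, a selenophosphate synthetase homologue, fell in the siRNA group relative to T3 (-0.73 ± 0.18, adjusted p = 0.0284, lost in 7 alternatives). Eefsec, the elongation factor that delivers selenocysteine, fell relative to euthyroid liver (-0.76 ± 0.14, adjusted p = 0.00582), in all 19 alternatives. The list's medians were 0.11 with T3 and -0.19 in the siRNA group relative to T3. In each comparison 1 of the 7 passed. Of all genes 17.5% passed with T3, 16.5% in the siRNA group relative to T3 and 24.6% in it relative to euthyroid liver.

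Serpina7 (chromosome X, 139079249 to 139085236), a plasma carrier of high affinity for thyroxine, was lowest with T3 alone and higher when FoxO1 siRNA was added. Its brighter probe had signals of 669, 365 and 793 in the siRNA group, 180, 229 and 168 with T3 and 752, 998 and 828 in euthyroid liver. The 3 T3 arrays lay below all 6 others, and array 2 of the siRNA group lay lowest of its group. Relative to euthyroid liver Serpina7 fell with T3, with a log2 change of -2.97 ± 0.29 (7.83-fold, adjusted p = 0.000865). Relative to T3 it rose in the siRNA group by 2.06 ± 0.29 (4.17-fold, adjusted p = 0.00252). Both calls held in all 19 alternatives, between -3.09 and -2.21 for the first and between 1.44 and 2.43 for the second.

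Relative to euthyroid liver Serpina7 in the siRNA group was lower, with a log2 change of -0.91 ± 0.29 (1.88-fold, adjusted p = 0.0479). The deposited signals of the 2 groups overlapped, since array 3 of the siRNA group exceeded array 1 of the euthyroid group, while the normalised values did not. The call was lost in 10 of 19 alternatives. It was lost without any euthyroid array (adjusted p = 0.0711, 0.126 and 0.117), without T3 array 1 or 2 (adjusted p = 0.0571 and 0.0605) and without siRNA array 2 (-0.54, adjusted p = 0.0886).

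The dimmer probe of Serpina7 lay near the detection limit, with signals of 155, 122 and 226 in the siRNA group, 114, 151 and 126 with T3 and 171, 245 and 195 in euthyroid liver. It was detected on 2 siRNA arrays, 1 T3 array and 3 euthyroid arrays. It fell with T3 relative to euthyroid liver (-1.64 ± 0.38, adjusted p = 0.0178), and its size depended on the background step (-0.76 without it or with the authors' values). That call was lost without euthyroid array 2 (adjusted p = 0.0614) or 3 (adjusted p = 0.0558). It did not pass in the siRNA group relative to T3 (0.71 ± 0.38, adjusted p = 0.228, 95% interval -0.13 to 1.56), with 1.13 without siRNA array 2 (adjusted p = 0.0542) and 0.34 without siRNA array 3. Nor did it pass relative to euthyroid liver (-0.92 ± 0.38, adjusted p = 0.103), where it was -0.51 without siRNA array 2 and passed without siRNA array 3 (-1.30, adjusted p = 0.0419).

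Markers of other cell types and of the acute phase response differed between the siRNA and T3 groups beside Serpina7. Of 17 acute phase genes tested 8 were higher in the siRNA group than with T3 and 1, the fibrinogen chain Fgb, was lower (-1.33), where 10.4% of all genes were higher and 6.11% lower. The Fgb probe was dim, at log2 means of 5.61 in the siRNA group and 6.94 with T3, where the lowest detected values per array were 5.35 to 5.60. Its call was lost in some alternatives. The other fibrinogen chains Fga and Fgg, at 15.42 and 14.53 with T3, did not pass. Lcn2 was higher by 4.95, Saa1 by 3.06 and Orm2 by 1.62. In fits that left out an array 4 to 6 acute phase genes were called higher. Their summed signal after background correction was 341100 to 400800 in the siRNA group, 293300 to 308000 with T3 and 302600 to 309700 in euthyroid liver. Macrophage markers were higher for 6 of 9 tested, with sums of 16060 to 20260 in the siRNA group, 11150 to 12560 with T3 and 9586 to 10150 in euthyroid liver. Cd5l did not pass the detection filter, and Cd68 was not analysed here. Of 11 stellate cell and fibroblast markers 6 were higher and 2 lower, with sums of 14700 to 17670 in the siRNA group, 13670 to 14430 with T3 and 16140 to 18580 in euthyroid liver. Acta2 was higher by 4.42, Col1a1 by 4.07 and Col3a1 by 1.69, while Dcn (-0.545) and Reln (-0.57) were lower. Col1a1 had a log2 mean of 5.24 with T3, where the lowest detected values of the T3 arrays were 5.42 to 5.60. The size of its difference from T3 therefore rests on a level near background. Dcn was the brightest of the stellate cell and fibroblast markers, at log2 means of 12.77 in the siRNA group, 13.32 with T3 and 13.38 in euthyroid liver. It therefore weighed most in the sums. Relative to euthyroid liver 4 of the 11 were higher, among them Acta2 (2.35) and Col1a1 (1.60), and 2 were lower. Both tested cholangiocyte markers, Krt7 and Sox9, were higher in the siRNA group than with T3. Krt7 was dim, at log2 means of 5.81 in the siRNA group and 5.09 with T3, and passed narrowly (adjusted p = 0.0496). Krt19 and Epcam did not pass the detection filter, and Spp1 was not analysed here. Hepatocyte markers were lower than with T3 for 3 of 9, where 6.11% of all genes were lower. Their sums were 147300 to 156600 in the siRNA group, 175400 to 185800 with T3 and 170100 to 179600 in euthyroid liver.

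Between T3 and euthyroid liver 5 of the 11 stellate cell and fibroblast markers were lower with T3, 1 of 9 macrophage markers was higher, and of 9 hepatocyte markers 3 were higher and 2 lower, where 7.47% of all genes were higher and 9.99% lower. Of 2 tested erythroid markers Alas2 was lower with T3 (-1.415, adjusted p = 0.00227). The erythroid sums were 19090 to 20730 with T3 and 21610 to 27660 in euthyroid liver. Of 7 sinusoidal endothelial markers Stab1 was lower (-0.49, adjusted p = 0.0158), with sums of 9582 to 10470 with T3 and 10590 to 11130 in euthyroid liver. The cholangiocyte marker Sox9 was lower as well (-0.53). No acute phase gene was called by limma in that comparison, and 1 of the 17 had an unadjusted p under 0.05. Cela2a and Amy2a5, the 2 tested markers of exocrine pancreas, were higher with T3 (1.65 and 0.45), with sums of 14170 to 16680 with T3 and 10090 to 11860 in euthyroid liver. Most of the sum is Amy2a5, at log2 means of 13.87 with T3 and 13.42 in euthyroid liver, beside 8.71 and 7.06 for Cela2a. The marker Cpa1 did not pass the detection filter, and Prss1 and Pnlip were not analysed here. The part of any of these markers in the differences of Dio1, Serpina7 or the other genes was not tested.

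Serpina7 belongs to the clade A serpins, most of them secreted liver proteins, and 9 of 12 others were tested. With T3 against euthyroid liver 1 of the 9 rose and 1 fell, near the 7.47% and 9.99% of all genes. These were Serpina6, the glucocorticoid carrier in plasma (0.48 ± 0.13, adjusted p = 0.0302), and Serpina10, an inhibitor of coagulation factor Xa (-0.36 ± 0.11, adjusted p = 0.0402). Serpina6 fell in the siRNA group against T3, with a log2 change of -0.79 ± 0.13 (adjusted p = 0.00439), in all 19 alternatives. Serpina12 (0.62, adjusted p = 0.0259) and Serpina10 (0.37, adjusted p = 0.0447) were higher; their calls were lost in 5 and in 9 of the 9 fits that left out an array. Serpina12 was also higher than in euthyroid liver (0.54, adjusted p = 0.03, lost in 7 alternatives). Of all genes 10.4% were higher and 6.11% lower in the siRNA group relative to T3. The medians of the 9 serpins were -0.07 with T3 and 0.16 in the siRNA group relative to T3. Serpina1a to Serpina1e were very bright, at log2 means of 14.67 to 15.79 with T3. Whether the scale compresses differences at that level, and so the medians, was not tested.

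Ttr, which carries thyroxine and the retinol-binding protein, differed little between the groups. Its signals were 42058, 39259 and 41896 in the siRNA group, 39445, 44250 and 40418 with T3 and 41141, 36987 and 34412 in euthyroid liver. With T3 it stood 0.14 ± 0.10 above euthyroid liver (adjusted p = 0.363, 95% interval -0.09 to 0.36). The siRNA group stood -0.06 ± 0.10 from T3 (adjusted p = 0.706, 95% interval -0.29 to 0.16) and 0.07 ± 0.10 from euthyroid liver (adjusted p = 0.63). The signal lay at 59.2% to 72.7% of the highest signal read on the same array, and whether the scale compresses differences there was not tested. Of 7 other secreted carrier proteins tested 0 passed with T3 by limma (0 with an unadjusted p under 0.05). Among them Trf, Ahsg, Apoa1 and Apoa2 had log2 means of 15.49 to 15.72 with T3, above the 15.34 of Ttr. The limit given for Ttr holds for them too. Alb, serum albumin, was lower in the siRNA group than with T3 (-1.08 ± 0.25, adjusted p = 0.0198) and than in euthyroid liver (-1.09, adjusted p = 0.0134). Albumin transcript is very abundant in liver, but the only tested Alb probe had log2 means of 8.48 in the siRNA group, 9.56 with T3 and 9.57 in euthyroid liver. The first call was lost without siRNA array 1 or 3.

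**Figure D2:**
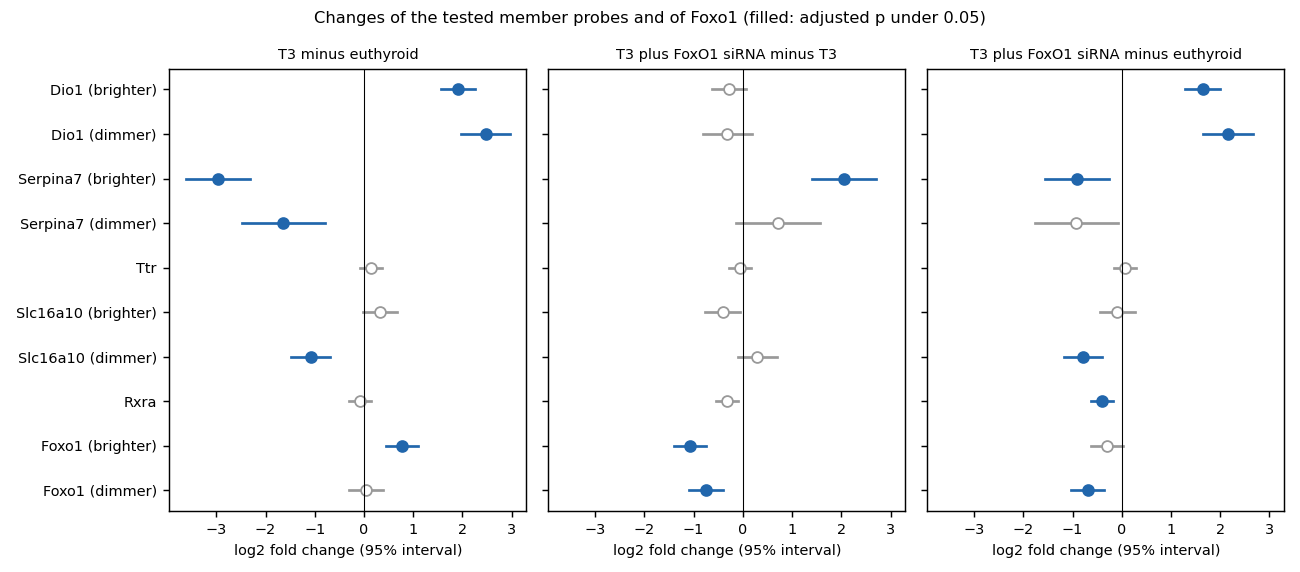
Log2 fold changes (x axis) with 95% intervals for the 8 tested probes and the 2 of Foxo1 in the 3 comparisons; filled points have an adjusted p under 0.05. Dio1 lies far right in both comparisons with euthyroid liver, and Serpina7 lies at -2.97 with T3 and at 2.06 in the siRNA group relative to T3 on its brighter probe. The dimmer Slc16a10 probe was not detected with T3, so its differences from T3 are fitted values only.

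Slc16a10 (chromosome 10, 40033532 to 40142270) had a probe for its RefSeq transcript and a dimmer one annotated to a separate cDNA, and the probes did not change alike. The brighter, RefSeq probe had signals of 305, 359 and 434 in the siRNA group, 313, 470 and 409 with T3 and 373, 332 and 278 in euthyroid liver. It passed in no comparison. The differences were 0.32 ± 0.16 for T3 over euthyroid liver (adjusted p = 0.177, 95% interval -0.03 to 0.67) and -0.41 ± 0.16 for the siRNA group over T3 (adjusted p = 0.106, 95% interval -0.76 to -0.06). For that difference between the siRNA group and T3 the normalised groups did not overlap. The siRNA group stood -0.09 ± 0.16 from euthyroid liver (adjusted p = 0.71), a sign that turned under median scaling (0.11).

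The dimmer Slc16a10 probe read 123, 147 and 138 in the siRNA group, 118, 141 and 125 with T3 and 187, 161 and 142 in euthyroid liver. It was detected on all 3 arrays of the siRNA and the euthyroid groups and on 0 of 3 with T3. Detection limits differed between arrays: 141 on T3 array 2 was not detected, while 123 on siRNA array 1 was. Relative to euthyroid liver the fitted log2 change in the T3 group was -1.08 (adjusted p = 0.0049, 95% interval -1.47 to -0.69). With the lowest signals detected on the T3 arrays in place of the T3 signals, the probe was 1.73-fold lower. That fold is not a lower limit, since the interval of the fit includes smaller changes. The fit also depends on the background step, with -0.67 with an offset of 50, -0.45 without the step and -0.46 with the authors' values. The probe fell in the siRNA group, with a log2 change of -0.79 ± 0.17 relative to euthyroid liver (1.73-fold, adjusted p = 0.0118), against -0.33 without the background step. Relative to T3, where the probe was not detected, no fold is given, and the fit did not pass (adjusted p = 0.282).

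Of 12 other genes for transport and intracellular binding 9 were tested. Slco1a4, an organic anion transporter that carries thyroid hormones, rose with T3 relative to euthyroid liver (1.03 ± 0.21, adjusted p = 0.0107) and was lower in the siRNA group than with T3 (-1.48 ± 0.21, adjusted p = 0.00237). Both calls held in all 19 alternatives. Slc10a1, the sodium-dependent bile acid carrier, was lower in the siRNA group than with T3 (-0.65 ± 0.13, adjusted p = 0.0111), a call lost under median scaling, and than in euthyroid liver (-0.82 ± 0.13, adjusted p = 0.00322). Slco2b1 (-0.63 ± 0.11, adjusted p = 0.00445) and Slco1b2 (-0.57 ± 0.12, adjusted p = 0.0105) were lower in the siRNA group than in euthyroid liver in all 19 alternatives, although the other probe of Slco1b2 gave 0.22. Slco2b1 also fell with T3 relative to euthyroid liver (-0.37 ± 0.11, adjusted p = 0.0422), a call lost in 12 alternatives. Crym, a cytosolic T3-binding protein, was higher in the siRNA group than with T3 (0.89 ± 0.21, adjusted p = 0.023, lost without T3 array 1 or 3 or siRNA array 3). It was also higher than in euthyroid liver (0.70, adjusted p = 0.0396, lost in 8 alternatives). The Crym probe was dim, at log2 means of 6.15 in the siRNA group, 5.26 with T3 and 5.45 in euthyroid liver. The lowest detected values per array were 5.35 to 5.60, so the size of these differences is uncertain. In all, 1 rose and 1 fell with T3, 1 rose and 2 fell in the siRNA group relative to T3, and 1 rose and 3 fell in it relative to euthyroid liver. Over all genes 7.47% rose and 9.99% fell with T3, and 10.4% rose and 6.11% fell in the siRNA group relative to T3, so 1 of 9 is near the background. In the siRNA group relative to euthyroid liver 24.6% of all genes were called (12.5% higher and 12.2% lower).

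The probes of both thyroid hormone receptors lay at or near the level of the negative controls. Thra (chromosome 11, 98740776 to 98769006) read 79.1, 100.1 and 115.9 in the siRNA group, 105.6, 148.8 and 146.1 with T3 and 126.7, 114.6 and 110.8 in euthyroid liver. It was detected on T3 arrays 2 and 3 and on no other. Thrb (chromosome 14, 17659225 to 18040097), the main receptor of hepatocytes, read 97.7, 95.8 and 102.3 in the siRNA group, 103.1, 99.1 and 116.8 with T3 and 114.6, 94.8 and 81.1 in euthyroid liver. It was detected on 0 of 9 arrays. Each receptor had only 1 probe, and neither probe passed the detection filter, so the array gives no measurement of a difference between the groups for either.

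Rxra (chromosome 2, 27676445 to 27763319), the partner of both receptors, had signals of 360, 365 and 426 in the siRNA group, 335, 480 and 389 with T3 and 399, 438 and 389 in euthyroid liver. These deposited signals overlapped, while after normalisation the 3 siRNA arrays (7.96, 8.02 and 8.08) lay below the T3 arrays (8.32, 8.35 and 8.39) and the euthyroid arrays (8.34, 8.45 and 8.51). With T3 the difference from euthyroid liver was -0.08 ± 0.10 (adjusted p = 0.61, 95% interval -0.30 to 0.14). Rxra fell in the siRNA group relative to euthyroid liver, with a log2 change of -0.41 ± 0.10 (1.33-fold, adjusted p = 0.0169). That call was lost without euthyroid array 2 (adjusted p = 0.0578) or 3 (adjusted p = 0.0573), and under median scaling (-0.22, adjusted p = 0.434). Relative to T3 it missed the threshold (-0.33 ± 0.10, adjusted p = 0.0526). Under 5 of 19 alternatives that difference passed, and under median scaling it was -0.08 (adjusted p = 0.82).

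Other nuclear receptors that share RXR as a partner were represented by 13 genes, 11 of them tested. With T3 against euthyroid liver 0 rose and 3 fell, where 9.99% of all genes fell. Nr1i3 (CAR, a sensor of foreign compounds) fell, with a log2 change of -0.88 ± 0.16 (adjusted p = 0.00794), and its 4 other probes gave between -0.95 and -0.05. Pparg fell, with a log2 change of -1.04 ± 0.23 (adjusted p = 0.0156, lost without euthyroid array 1 or 3). Nr1h3 (LXR alpha, an oxysterol receptor) fell, with a log2 change of -0.40 ± 0.10 (adjusted p = 0.0235), and its other probe went the opposite way at 0.70.

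Nr1i2 (PXR, a sensor of foreign compounds and bile acids) fell in the siRNA group against T3, with a log2 change of -0.86 ± 0.14 (adjusted p = 0.00533) in all 19 alternatives. Ppara, the regulator of fatty acid oxidation, fell, with a log2 change of -0.92 ± 0.22 (adjusted p = 0.0223) and the retinoic acid receptor Rarb rose by 0.83 ± 0.21 (adjusted p = 0.0268); their calls were lost in 4 and in 5 of the 9 fits that left out an array. Relative to euthyroid liver Nr1i3 (-1.25 ± 0.16, adjusted p = 0.00149), Pparg (-1.17 ± 0.23, adjusted p = 0.00743) and Nr1i2 (-0.45 ± 0.14, adjusted p = 0.0468) fell in the siRNA group and Rarb rose (1.20 ± 0.21, adjusted p = 0.00441). The Nr1i2 call was lost in 11 alternatives, the other 3 in none. The 4 other probes of Nr1i3 gave between -1.28 and 0.15 there. In the siRNA group 3 of the 11 genes passed relative to T3 and 4 relative to euthyroid liver, where 16.5% and 24.6% of all genes passed.

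**Figure D3:**
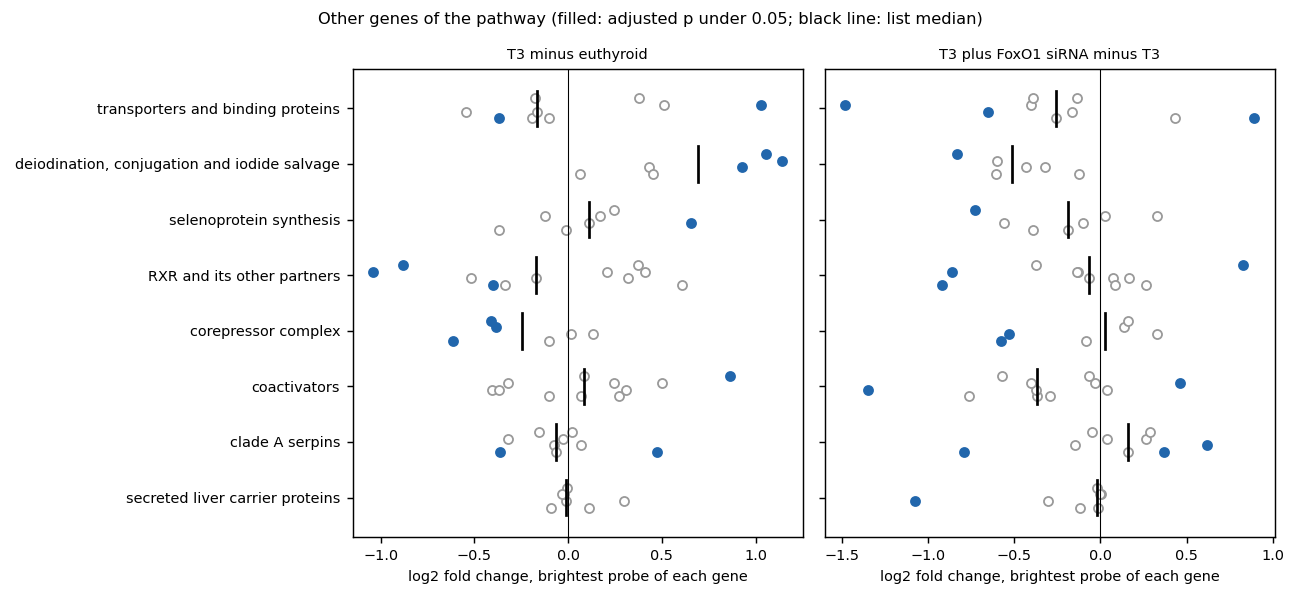
Log2 fold change (x axis) of each tested gene in 8 lists (rows), for T3 minus euthyroid and for T3 plus FoxO1 siRNA minus T3; filled points have an adjusted p under 0.05 and the black line is the list's median. The median of the deiodination and conjugation list lies at 0.69 in the first panel and at -0.52 in the second, and the panels share the T3 arrays.

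Ncor1 works in a complex with the deacetylase Hdac3 and the subunits Tbl1x, Tbl1xr1 and Gps2. Of 9 genes of such complexes 6 were tested. With T3 against euthyroid liver 0 rose and 3 fell: Tbl1x (-0.61 ± 0.13, adjusted p = 0.014), the scaffold Sin3a (-0.41 ± 0.10, adjusted p = 0.0226) and Hdac3 (-0.39 ± 0.10, adjusted p = 0.0268). Over all genes 7.47% rose and 9.99% fell in that comparison. The other probe of Tbl1x gave 0.21. Without a single array 0 to 3 of these 3 calls were left, and each was lost without euthyroid array 1. Both Gps2 (-0.58 ± 0.13, adjusted p = 0.0211) and Tbl1xr1 (-0.53 ± 0.13, adjusted p = 0.0258) fell in the siRNA group relative to T3, and Tbl1x (-0.70, adjusted p = 0.00636) and Gps2 (-0.68, adjusted p = 0.00758) fell relative to euthyroid liver. The other probes of Tbl1xr1 gave -0.23 and 0.01 relative to T3, and that of Tbl1x gave 0.28 relative to euthyroid liver. Of all genes 6.11% fell relative to T3 and 12.2% relative to euthyroid liver. All 4 calls in the siRNA group were lost under median scaling. The list's medians were -0.24 with T3 and 0.03 in the siRNA group relative to T3.

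Of 12 coactivator genes 11 were tested. With T3 1 passed, in the siRNA group 2 passed relative to T3 and 3 relative to euthyroid liver. Of all genes 17.5%, 16.5% and 24.6% passed in these comparisons. Ppargc1b (PGC-1 beta, a coactivator of mitochondrial and lipid genes) fell in the siRNA group, with a log2 change of -1.35 ± 0.15 relative to T3 (adjusted p = 0.000802) and -1.04 ± 0.15 relative to euthyroid liver (adjusted p = 0.00213), in all 19 alternatives. Ppargc1a (-0.86 ± 0.23, adjusted p = 0.0238) and Ncoa2 (-0.74 ± 0.21, adjusted p = 0.0298) fell relative to euthyroid liver, with 5 alternatives losing each call. The Ncoa2 probe was dim, at log2 means of 5.18 in the siRNA group and 5.92 in euthyroid liver. The lowest detected values per array were 5.35 to 5.60, so the size of its fall is uncertain. The arginine methyltransferase Prmt1 rose relative to T3 (0.46 ± 0.11, adjusted p = 0.0196, lost without T3 array 1 or siRNA array 2 or 3). With T3 against euthyroid liver only the acetyltransferase Kat2b passed (0.86 ± 0.20, adjusted p = 0.0191); it was lost without euthyroid array 1 or 2 or T3 array 3.

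Genes known to respond to thyroid hormone in liver give the setting for Dio1, which is not counted among them. Of 8 tested, Me1 (malic enzyme; 1.95 ± 0.22, adjusted p = 0.0016) and Pck1 (a gluconeogenic enzyme; 1.54 ± 0.23, adjusted p = 0.00375) rose with T3. When the siRNA group was set against T3, Pck1 (-1.94 ± 0.23, adjusted p = 0.00105) and Me1 (-1.24 ± 0.22, adjusted p = 0.00744) fell in all 19 alternatives, where Dio1 gave -0.28 and did not pass. Klf9 (-0.77, adjusted p = 0.0377) and Thrsp (-0.75, adjusted p = 0.041) fell as well and Hr rose (0.88, adjusted p = 0.0284). In fits that left out an array 2 to 3 genes of this list were called lower, against 4, and 0 to 1 higher. The other probe of Thrsp gave -1.45 there and -0.62 with T3, where the brighter one gave 0.63. Of all genes 7.47% were higher with T3, and in the siRNA group relative to T3 10.4% were higher and 6.11% lower. The difference between Dio1 and these thyroid hormone responsive genes was not tested.

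Across the 8 tested probes, 5 were called with T3 against euthyroid liver (2 higher and 3 lower), against 18.6% of all tested probes (9.05% higher and 9.53% lower). In the siRNA group 1 was called relative to T3, as higher, against 14.8% of all probes (8.43% higher and 6.36% lower). Relative to euthyroid liver 5 were called (2 higher and 3 lower), against 24.4% (12.3% higher and 12.1% lower). Of all called probes 48.7%, 57% and 50.4% were higher in these 3 comparisons, against 39.4%, 86.6% and 74.9% with median scaling. Groups did not overlap for 6, 5 and 5 of the 8 probes in these comparisons, where 40.5%, 35.3% and 44.8% of all tested probes did not overlap. The 8 probes come from 5 genes, and probes of 1 gene share its transcripts, so these counts are descriptions.

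The genes with the profile nearest to Dio1 over the 9 arrays, by the root mean square difference of log2 signals centred on their own mean, were Nt5e (0.18), Gstt1 (0.23), Cetn2 (0.27) and Sqle (0.28). Nt5e, a cell-surface nucleotidase, was 1.94 higher with T3 than in euthyroid liver and -0.31 from T3 in the siRNA group. Gstt1, a glutathione transferase, had 1.66 and -0.31 in these comparisons. Cetn2, a centrin, had 1.66 and -0.41, and Sqle, squalene epoxidase of cholesterol synthesis, 1.53 and 0.09. None of these genes near Dio1 passed in the siRNA group relative to T3 (adjusted p = 0.132 to 0.747). For Serpina7 the nearest profiles lay farther off: Pisd-ps3 (0.52), a pseudogene, Abcc3 (0.60), an export pump of conjugates, the complement component C6 (0.61) and Mmp23 (0.68), a metalloproteinase. They were -2.14, -1.90, -1.96 and -1.64 from euthyroid liver with T3, and 1.10, 0.82, 0.80 and 1.90 from T3 in the siRNA group. Of the differences from T3 that of C6 did not pass (adjusted p = 0.121), while those of Pisd-ps3, Abcc3 and Mmp23 did. These 4 genes were chosen for this likeness, so the values are a description.

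**Figure D4:**
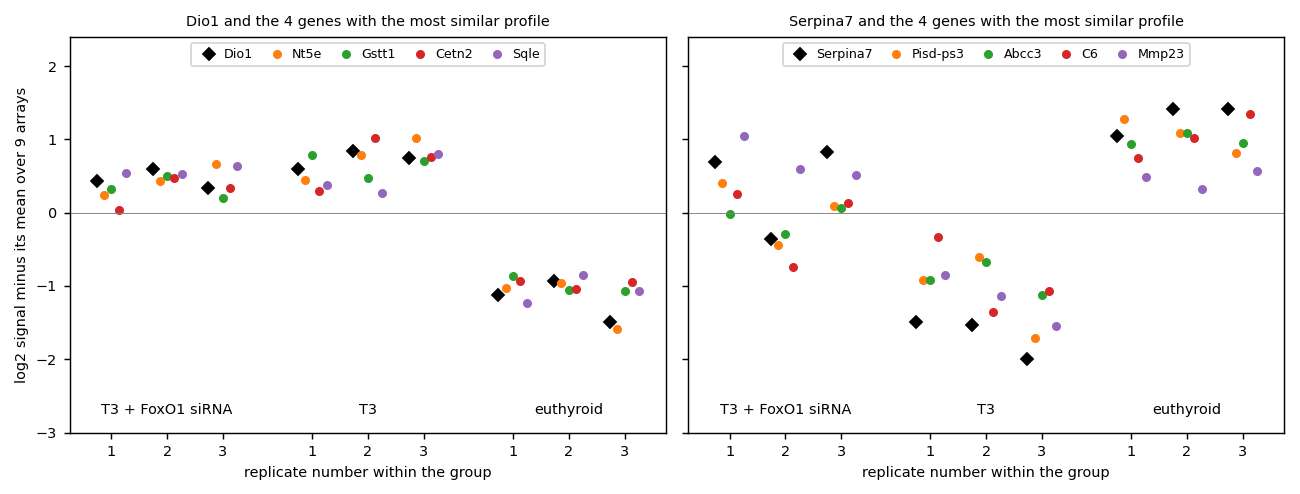
Log2 signal minus the gene's mean over the 9 arrays (y axis) on each array (x axis, replicate number within its group) for Dio1 and for Serpina7 (black diamonds) and the 4 genes nearest to each. The genes near Dio1 lie above their mean on the 6 arrays with T3, and those near Serpina7 below theirs on the 3 arrays with T3 alone.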

How the data were processed

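Liver RNA of 9 samples was hybridised to Illumina bead arrays, 3 per group, with groups and replicate numbers taken from the sample titles. The authors deposited linear probe signal intensities without normalisation or background subtraction with detection p-values beside them, as the file headers name these columns; the p-values' steps imply 936 negative controls. A second deposited table holds the authors' intensities of the same arrays after quantile normalisation, as a comparison with the mean sorted signals showed (largest difference 0.0693%), and served as an alternative. The submitters' processing notes name Partek 6.6 without a step.

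In R 4.3.3, limma 3.58.1 (neqc) corrected the deposited intensities for background, using negative controls that it infers from those p-values, quantile-normalised with an offset of 16 and took log2. Of 45281 probes, 18581 detected on at least 3 arrays were tested in 1 linear model with 3 group means (lmFit and eBayes, two-sided, Benjamini-Hochberg). No batch is given in the labels or headers used. Gene symbols come from the platform annotation: 34885 probes have 1 symbol, 18 several and 10378 none. Simulated data had 1 draw a comparison, with 200 of 18581 probes changed. On these the fit found 95.5% to 98.5% of 4-fold, 55.2% to 65.7% of 2-fold and 20.9% to 26.9% of 1.5-fold changes. Of its calls there 3.1% to 7.94% were false, the most for T3 against euthyroid liver. In the data 14.8% to 24.4% of tested probes were called, a far larger part than was changed in the simulation. The simulated shares therefore need not apply to the data. Precision is limited by having 3 arrays a group.

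The genes and the 20 lists were chosen with earlier results of these data known. Named are the 8 genes, Foxo1, every called gene of 8 lists on the pathway, up to 3 genes per comparison of other lists, and the 4 nearest profiles to Dio1 and Serpina7. Klf9, Thrsp, Dcn, Fga, Fgb, Fgg and Ugt1a6a were named after their values were seen. So were Serpina1a to Serpina1e, Trf, Ahsg, Apoa1 and Apoa2. Alternatives (19) changed the background step, offset, scaling, filter, probe choice, array weights, the replicate block or the samples, 9 of them by leaving out 1 array.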

Additional observations from a re-analysis of the deposited data

How the results depend on the processing

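On both probes Dio1 kept its calls against euthyroid liver, and Serpina7 on its brighter probe kept those of T3 against euthyroid liver and of the siRNA group against T3, in every alternative that could be run; the dimmer Slc16a10 probe kept its 2 calls, at a smaller size without the background step (-0.45 with T3 and -0.33 in the siRNA group, against -1.08 and -0.79). The cause of the changes below was not tested. Probes called with T3 against euthyroid liver numbered 3452, against 1882 with median scaling (39.4% of them higher, against 48.7%), 1917 with 1 probe per gene, where fewer probes are tested, and 1691 to 3556 without 1 array. In the siRNA group against T3 they numbered 2749, against 1785 when only the 2 groups were fitted and 1473 to 2353 without 1 array (86.6% higher with median scaling, against 57%); against euthyroid liver 4540, against 2779 with 1 probe per gene and 2515 to 4726 without 1 array (74.9% higher with median scaling, against 50.4%). Median scaling moved the median of all probes to 0.16 in the siRNA group against T3 (from -0.01), to 0.10 against euthyroid liver and to -0.07 with T3. Relative to these shifts Rxra stood at -0.23 and -0.32 in the siRNA group.

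The dimmer Serpina7 probe, called at -1.64 with T3, ranged from -1.91 to -1.44 without 1 array, gave -0.76 without the background step or with the authors' values and -1.09 with an offset of 50, and was lost without euthyroid array 2 or 3. In the siRNA group against euthyroid liver it passed with array weights (-1.31) and without siRNA array 3 (-1.30), and ranged from -1.30 to -0.51 without 1 array. The brighter Serpina7 probe lost that comparison with median scaling (-0.77), and at an unmoved -0.91 without the filter, with the replicate block and with only the 2 groups; without 1 array it ranged from -1.13 to -0.54. Rxra in the siRNA group against T3 passed without the background step (-0.25), with the authors' values (-0.25), among probes detected on all 9 arrays (-0.33), with 1 probe per gene (-0.33) and with array weights (-0.34). Against euthyroid liver it lost its call with median scaling (-0.22), and ranged from -0.46 to -0.37 without 1 array. The brighter Slc16a10 probe, not called in the siRNA group against euthyroid liver at -0.09, turned its sign with median scaling (0.11) and ranged from -0.19 to 0.044 without 1 array. The dimmer Foxo1 probe, at 0.05 with T3 and not called, gave -0.003 with array weights and -0.062 to 0.11 without 1 array.

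Replicate numbers did not pair the samples: deviations of same-numbered arrays correlated at -0.051 to 0.045. With the replicate number as a block 2728, 2196 and 3905 probes were called in the 3 comparisons, and of the calls of the 8 probes only that of the brighter Serpina7 probe in the siRNA group against euthyroid liver was lost (adjusted p = 0.0749). Signals near background (Thra, Thrb and the dimmer probes of Serpina7 and Slc16a10) limit what can be measured. The same holds for listed genes that were dim in a group, among them Crym, Ncoa2, Col1a1, Krt7 and Fgb.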
